A study of Mus musculus with 5 samples.

Results

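Cytochrome P450 genes nearest to peaks of an Nr1d1 (REV-ERBα) ChIP or of its IgG mock were examined in mouse Th1 cells. The members were chosen by the measured peak positions: they are the genes nearest to a peak in the authors' annotation whose symbol starts with Cyp and a digit and does not end in -ps. Of 12195 genes with a peak assigned to them in either list, 45 met this rule, and RefSeq lists 43 of them as protein-coding. The other members, Cyp2j7 and Cyp4b1-ps1, are pseudogenes in RefSeq, and the rule left out 2 further pseudogenes with 1 IgG peak each. The study mapped by ChIP-seq where Nr1d1 sits in the genome of these cells. It comprised 3 Nr1d1 ChIP libraries, 1 IgG mock library and 1 input DNA library, all from wild-type C57BL/6 cells. Because the label for the antibody is the same in all 5, IgG and input included, groups were taken from the titles. Naive CD4 T cells came from lymphoid organs of mice aged 4 to 6 weeks, were enriched with an antibody to CD44 among others, and were activated in culture through CD3 and CD28. IL-12, IFNγ and an antibody to IL-4 steered them to the Th1 state before harvest after 3 to 4 days. Peak lists hold no expression, so the identity of the cells could not be checked against marker genes.

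Cytochrome P450 enzymes are heme proteins that insert oxygen into lipophilic substrates. Some families have fixed tasks in making or degrading steroids, bile acids, vitamin D and retinoic acid, while others clear drugs and other foreign compounds or oxidise fatty acids. Most of the drug-metabolising genes are expressed mainly in liver and gut and lie in clusters of related copies. Nr1d1 is a heme-binding nuclear receptor that represses transcription in the circadian clock, and in liver it is known for its part in the rhythm of lipid and bile acid metabolism.

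The authors deposited 1 peak list per antibody, each over the input, with 19586 Nr1d1 ChIP peaks and 17111 IgG peaks, and a list of the 14471 ChIP peaks that overlapped no IgG peak, called ChIP-specific here. A peak carries a position, a length and an FDR of at most 0.05, but no read count or height, so the depth behind it is unknown. An FDR of at most 0.01 was reached by 29.1% of all ChIP-specific and 53.5% of all IgG peaks. A lower FDR for an IgG than for a ChIP-specific peak at a gene below is therefore not particular to that gene. The files used here hold no value for a single library, so the spread among the 3 ChIP libraries could not be measured and no test over samples could be made. Intervals below are Wilson intervals of shares, order-statistic intervals of medians or exact Poisson intervals of counts, all at 95%, and cover the counting of peaks or genes only. Since nearness to a peak chose the members, the counts of members are descriptions. A single input library served both lists, and its part in the sites they share was not tested.

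Of the 45 P450 genes, 34 were nearest to a ChIP peak and 29 to an IgG peak, and 18 to both. A ChIP-specific peak was nearest to 25 genes, 19 of them with 1 such peak, 5 with 2 and Cyp26b1 with 3. Of these 25 genes, 16 had no IgG peak and 9 had one. For 9 further genes every ChIP peak lay over an IgG peak, and for the remaining 11 an IgG peak was nearest with no ChIP peak. The same split was not counted over all genes, so it is not read as a trait of P450 genes. In all, 46 ChIP peaks, of which 32 were ChIP-specific, and 41 IgG peaks were nearest to a member.

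Counted over all 99 protein-coding P450 genes of RefSeq, 24 (24.2%, Wilson 95% interval 16.9 to 33.5) were nearest to a ChIP-specific peak. The share over all 21887 protein-coding genes was 17.5%. For all ChIP peaks the number was 32 (32.3%, 23.9 to 42.0), beside 22.0% of all genes, and for IgG peaks 28 (28.3%, 20.4 to 37.8), beside 17.0%. When a peak had to lie in the gene body or within 5 kb of it, 16 P450 genes (16.2%, 10.2 to 24.7) held a ChIP-specific peak, beside 16.8% of all genes. By the same count 22 (22.2%, 15.2 to 31.4) held an IgG peak, beside 15.9% of all genes. A peak of either list was nearest to 43 protein-coding P450 genes (43.4%), beside 26.6% of all genes, and the other 56 were nearest to none. Protein-coding P450 genes had a median length of 22.5 kb, against 17.2 kb for all protein-coding genes. The part of gene length in these shares was not tested.

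**Figure D1:**
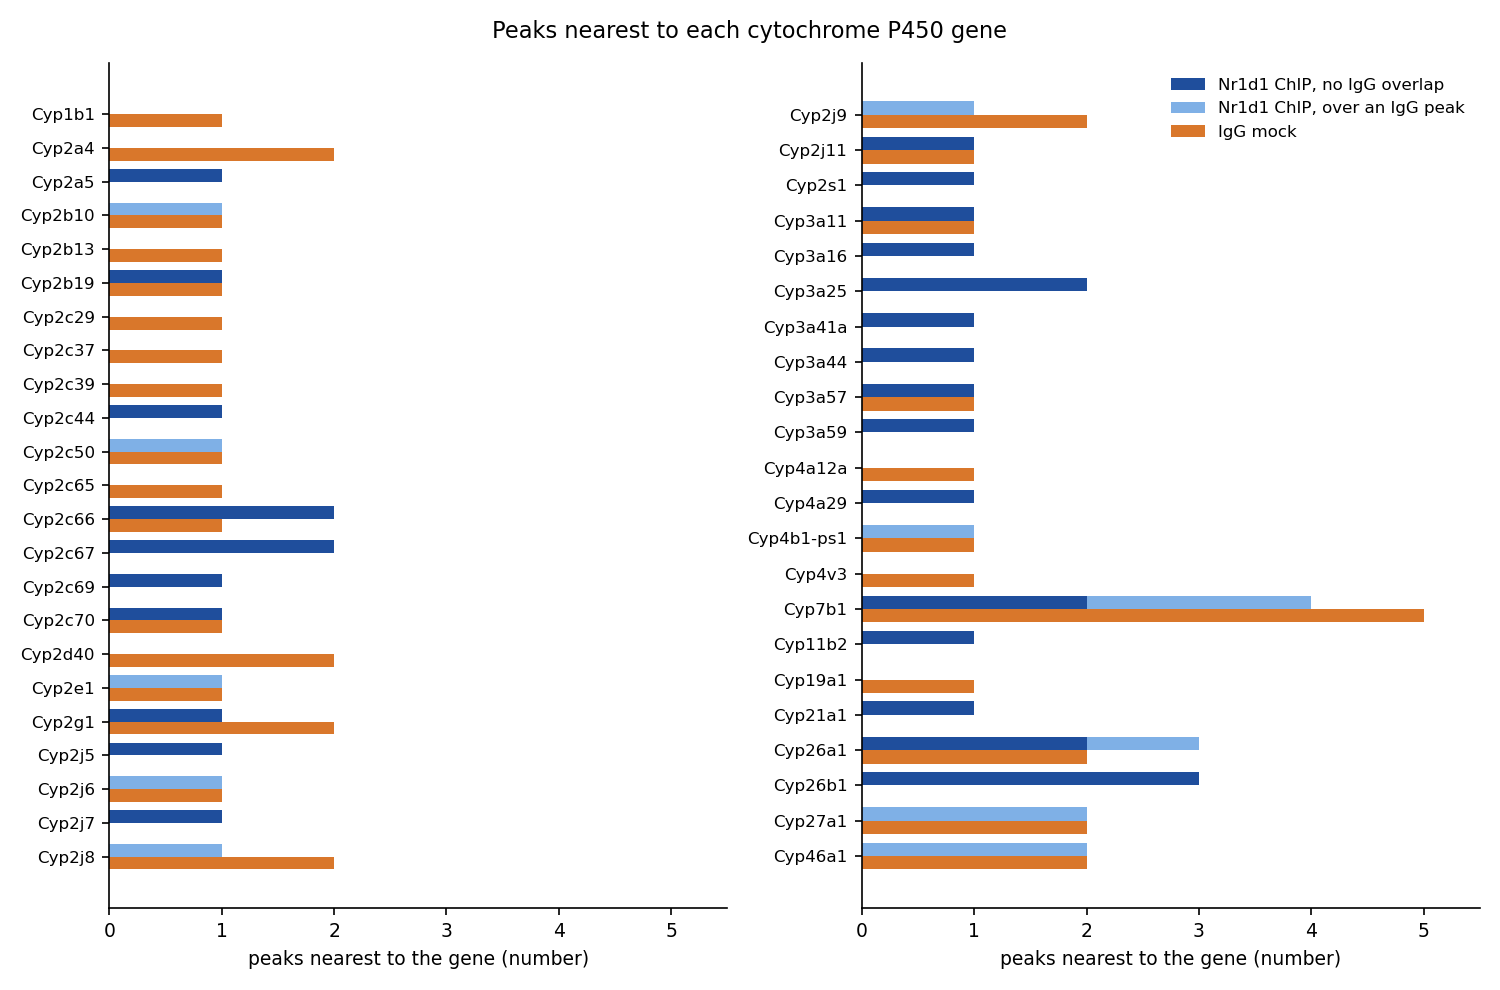
Number of peaks nearest to each of the 45 P450 genes (x axis) by gene (y axis). Blue bars are Nr1d1 ChIP peaks without (dark) and with (light) an overlapping IgG peak, and orange bars are IgG peaks; Cyp7b1 has the most peaks, 4 ChIP and 5 IgG, and Cyp26b1 has 3 ChIP peaks and no IgG peak.

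Among the genes that degrade retinoic acid, 2 of 3 had ChIP-specific peaks, beside 17.5% of all protein-coding genes. Cyp26a1, the retinoic acid hydroxylase that is itself induced by retinoic acid, had 2 ChIP-specific peaks, 1 ChIP peak over an IgG peak and a further IgG peak. The first lay in an intron 304 bp downstream of the TSS (chr19:37698051-37698174, mm10, FDR 0.019), in the body of the gene. The second was intergenic, 80779 bp downstream (chr19:37778476-37778699, FDR 0.0106). The shared peak 12817 bp downstream (chr19:37710476-37710774) had an FDR printed as 0, as did the IgG peak under it, so the site with the lowest FDR at this gene was the one that IgG also gave. The RefSeq promoter of Cyp26a1 (GRCm38.p6, plus strand, chr19:37697558-37697857, 250 bases before to 50 after the TSS) is shown because it ends 193 bp before the intronic peak. The capitals mark 2 copies of AGTTCA in the same direction with 5 bases between them, here on the opposite strand and starting at position -32, of the type that retinoic acid receptors bind.
Cyp26a1 promoter: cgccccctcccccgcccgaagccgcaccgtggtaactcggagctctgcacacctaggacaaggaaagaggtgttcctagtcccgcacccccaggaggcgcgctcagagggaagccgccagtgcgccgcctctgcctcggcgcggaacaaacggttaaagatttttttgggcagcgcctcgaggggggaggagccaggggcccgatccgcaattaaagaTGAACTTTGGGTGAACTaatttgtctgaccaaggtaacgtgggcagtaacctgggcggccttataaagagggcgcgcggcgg
This motif (AGTTCA, any 5 bases, AGTTCA), searched on both strands, was in 8 of the 32851 promoter sequences of the RefSeq table (0.0244%) and in 1 of the 87 that belong to P450 genes. No other spelling of a repeat with this spacing was searched, and this one is that of the Cyp26a1 site. The counts therefore do not measure how rare such repeats are. The intronic peak itself does not reach this promoter window.

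Cyp26b1, the related enzyme of developing tissues and skin, had 3 ChIP-specific peaks and no IgG peak. The peak with the lowest FDR of all ChIP-specific peaks at P450 genes was among them, intergenic and 68873 bp downstream of the TSS (chr6:84524776-84525099, FDR 0.00332, 325 bp long). A second intergenic peak lay 38473 bp downstream (FDR 0.0111). The third, 25567 bp upstream (chr6:84619401-84619549, FDR 0.0184), was annotated as exonic, but the RefSeq gene that holds it is Exoc6b, a subunit of the exocyst. The nearest IgG peak was between 201426 and 295876 bp away from the 3 peaks, and all 3 lay outside the body of Cyp26b1. Cyp26c1, the third gene of the family and a neighbour of Cyp26a1, was nearest to no peak, though the intronic Cyp26a1 peak also lay within 5 kb of its body.

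Among the genes of steroid hormone synthesis, 2 of 6 had a ChIP-specific peak, beside the same 17.5% of all protein-coding genes. Cyp11b2, which encodes aldosterone synthase, had one at its transcription termination site (TTS), inside the gene body and 5481 bp downstream of the TSS (chr15:74850676-74850999, FDR 0.00393, 325 bp long), with the nearest IgG peak 167201 bp away. Cyp21a1, the steroid 21-hydroxylase gene of the MHC region, was assigned a peak (chr17:34798201-34798374, FDR 0.0184) that the annotation calls exonic. This peak lay 2974 bp outside the RefSeq body of Cyp21a1 and inside Tnxa, a neighbouring tenascin gene. Cyp19a1, the aromatase gene, was nearest to 1 intergenic IgG peak and to no ChIP peak. Cyp11a1, Cyp11b1 and Cyp17a1, which encode further steps of steroid synthesis, were nearest to no peak.

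Cyp2s1, a P450 gene of epithelia outside the liver, was the P450 gene whose ChIP-specific peak was annotated as a promoter. The peak (chr7:25816426-25816524, FDR 0.0343, 100 bp long) was centred 83 bp downstream of the TSS that the annotation used, and the nearest IgG peak was 27826 bp away. In the RefSeq promoter (GRCm38.p6, minus strand, chr7:25816476-25816775), the peak covers 49 bases, marked by capitals, which begin right after the first base of the transcript.
Cyp2s1 promoter: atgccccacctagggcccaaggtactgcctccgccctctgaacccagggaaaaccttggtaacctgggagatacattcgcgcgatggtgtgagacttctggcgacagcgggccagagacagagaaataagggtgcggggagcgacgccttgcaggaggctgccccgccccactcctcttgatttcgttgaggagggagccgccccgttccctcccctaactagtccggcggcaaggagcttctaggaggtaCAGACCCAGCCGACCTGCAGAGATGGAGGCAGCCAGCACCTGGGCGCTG
This sequence holds none of the motifs searched, among them the AGGTCA half-site to which Nr1d1 binds as a monomer with an A/T-rich flank. That says only that these letters are not in this window.

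Of 7 genes of cholesterol, bile acid and oxysterol metabolism, 3 had ChIP peaks, beside 22.0% of all protein-coding genes. They held 8 ChIP peaks, of which 6 lay over an IgG peak, beside 26.1% of ChIP peaks outside P450 genes; the peaks come from 3 genes and were not tested. Cyp27a1, the mitochondrial sterol hydroxylase of the alternative bile acid pathway, had 2 ChIP peaks, both with an FDR printed as 0 and both over IgG peaks. One was annotated as a promoter, 864 bp upstream of a TSS inside the gene (chr1:74734301-74734674), and the other was intronic (chr1:74719876-74720199). The IgG peaks at these sites had an FDR printed as 0 and of 0.0277. Cyp46a1, the cholesterol hydroxylase of neurons, also had both of its ChIP peaks over IgG peaks. They were intronic, 9323 bp and 15173 bp downstream of the TSS, with an FDR printed as 0 and of 0.00617, against 0.012 and 0.0364 for the IgG peaks.

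Cyp7b1, an oxysterol hydroxylase that also acts on ligands guiding lymphocytes in lymphoid organs, had the most peaks of any P450 gene, 4 from the ChIP and 5 from IgG. All 9 lay upstream of the gene, between 9524 and 98799 bp from the TSS. The 2 ChIP-specific peaks were at 9524 bp (chr3:18252801-18252924, FDR 0.0399) and at 91924 bp (chr3:18335101-18335424, FDR 0.00749). The nearer one was separated by 1601 bp from an IgG peak, the shortest such gap at any P450 gene. The IgG peak with the lowest FDR of this region, printed as 0, lay at 83887 bp with no ChIP peak over it. A further ChIP-specific peak (chr3:18176576-18176674, FDR 0.021) fell inside the body of Cyp7b1, but its nearest TSS was that of the predicted gene Gm23686, as was that of 3 IgG peaks in the body of Cyp7b1 or within 5 kb of it. Cyp7a1 and Cyp8b1, the liver enzymes of classical bile acid synthesis, Cyp39a1 and Cyp51, a step of cholesterol synthesis, were nearest to no peak, and neither were the vitamin D genes Cyp2r1, Cyp24a1 and Cyp27b1. At Cyp39a1 and Cyp27b1 an IgG peak lay in the gene body or within 5 kb of it, but a neighbouring TSS was nearer.

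The Cyp3a genes, whose liver enzymes oxidise many drugs and steroids, had ChIP-specific peaks at 7 of 9 protein-coding members, beside 24.2% of all P450 genes and 17.5% of all protein-coding genes, and no ChIP peak besides these 8. They spread along the cluster on chromosome 5, where an IgG peak was nearest to Cyp3a11 and to Cyp3a57 only. The 8 ChIP-specific peaks in 0.77 Mb correspond to 10.4 per Mb (exact Poisson interval 4.49 to 20.5), against 2.6 IgG peaks per Mb (0.315 to 9.38). Chromosome 5 as a whole had 6.16 ChIP-specific and 6.9 IgG peaks per Mb, and both values lay inside the intervals of the cluster. Cyp3a25, expressed in adult liver, had both of its peaks inside the gene, 3961 and 8411 bp downstream of the TSS (chr5:146005526-146005749, FDR 0.0135, and chr5:146001076-146001299, FDR 0.0172). Cyp3a59 also held an intronic peak (chr5:146095826-146095974, FDR 0.0102). The others were intergenic, with the lowest FDR at Cyp3a44 (0.0088) and Cyp3a57 (0.00887) and higher ones at Cyp3a11 (0.0222), Cyp3a16 (0.043) and Cyp3a41a (0.0451). The peak of Cyp3a11, the main inducible drug-metabolising member, lay 38761 bp upstream of its TSS, 14351 bp from an IgG peak with an FDR of 0.00155. Cyp3a41a and Cyp3a41b are close copies, and how reads that match several copies were treated is not given in the sources used here, so the assignment of a peak to 1 copy is uncertain. The same limit may apply to related copies in the other clusters, also where a gene has no peak. Cyp3a13, a member outside the cluster, was nearest to no peak.

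Of 7 Cyp3a genes with a ChIP-specific peak, 5 had the half-site AGGTCA in a RefSeq promoter, starting between positions -177 and -150 relative to the TSS. None was found for Cyp3a16 and Cyp3a41a, and not every P450 gene had a promoter sequence. The sites are shown because these 5 genes had peaks in the same cluster, and no peak covers the sites. The half-site on the strand of the gene is in capitals, with 10 bases to either side.
Cyp3a57 (chr5:145345085-145345110, plus strand): ataagctcaaAGGTCAgagtagggaa
Cyp3a25 (chr5:146009779-146009804, minus strand): ataagctcaaAGGTCAgagtaagaaa
Cyp3a59 (chr5:146079071-146079096, plus strand): ataagctcaaAGGTCAgagtaaaaaa
Cyp3a44 (chr5:145806009-145806034, minus strand): accttaaaggAGGTCAacatagggta
Cyp3a11 (chr5:145880001-145880026, minus strand): agctcaaagtAGGTCAagttgggctg
In Cyp3a57, Cyp3a25 and Cyp3a59 the half-site and the 10 bases before it are identical, and each has a second half-site on the opposite strand. In Cyp3a11 the letters before the half-site make it TAGGTCA directly preceded by AAN, a narrow form of the ROR and REV-ERB response element (RORE), which begins at position -166. Searched on both strands, this form was in 72 of 32851 promoters (0.219%), and among the 87 promoters of 77 P450 genes in that of Cyp3a11. The shorter TAGGTCA was in the same 1 of 87 (1.15%), against 2.61% of all. The half-site alone, which it contains, was in 22 of 87 P450 promoters (25.3%) and in 16.3% of all, and the RevDR2 form (AGGTCA, any 2 bases, AGGTCA) was in 0 of 87 and in 3 of all. The 22 promoters belong to 21 genes, and related copies such as Cyp2a4 and Cyp2a5 share the bases around the half-site. These promoters are therefore not independent, and the difference in share was not tested.

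**Figure D2:**
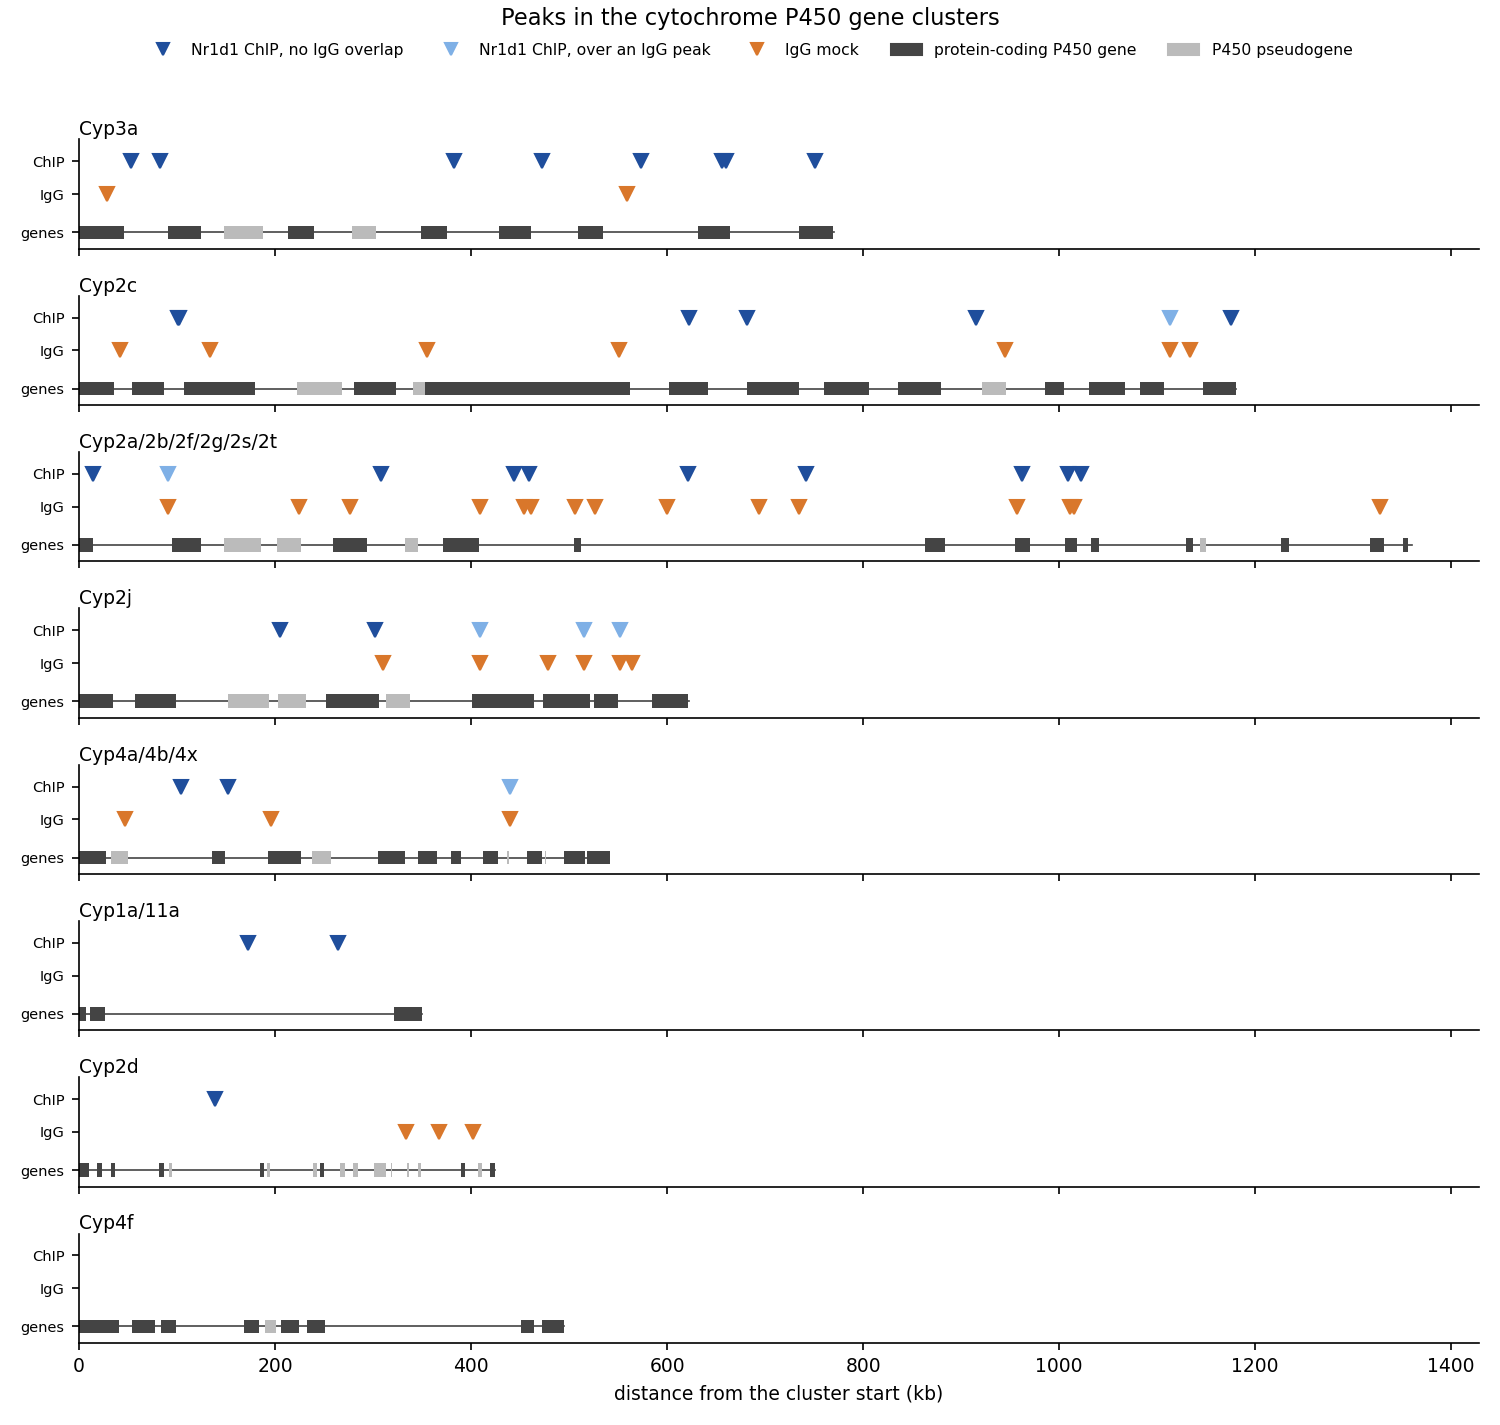
Peaks in 8 P450 gene clusters, by distance from the cluster start in kb (x axis), with protein-coding P450 genes in dark grey and pseudogenes in light grey; triangles are Nr1d1 ChIP peaks without (dark blue) and with (light blue) an IgG overlap in the upper row and IgG peaks (orange) in the middle row. The Cyp3a cluster holds 8 ChIP-specific and 2 IgG peaks, the Cyp4f cluster none, and the 2 Cyp2c66 peaks at about 100 kb in the Cyp2c cluster overlap as drawn.

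The Cyp2c genes, which oxidise drugs and arachidonic acid, had 7 ChIP-specific peaks, 1 ChIP peak over an IgG peak and 7 IgG peaks. The ChIP-specific peaks belonged to 5 of the 15 protein-coding Cyp2c genes, beside 17.5% of all protein-coding genes. IgG peaks belonged to 7 of the 15, beside 17.0%. The cluster on chromosome 19 held 5.08 ChIP-specific (1.87 to 11.1) and 5.93 IgG peaks per Mb (2.38 to 12.2), beside 5.01 and 6.23 over the whole chromosome. Cyp2c66, an intestinal member, had 2 ChIP-specific peaks upstream of its TSS, at 4636 bp (chr19:39109151-39109374, FDR 0.0172) and 5686 bp (FDR 0.0165), and an intronic IgG peak. Cyp2c70, which makes muricholic acids in mouse liver, had an intronic ChIP-specific peak 5011 bp downstream of its TSS (chr19:40182201-40182349, FDR 0.0103), while the IgG peak assigned to it had a lower FDR of 0.000934. Of the 2 peaks assigned to Cyp2c67, the one annotated as TTS (chr19:39688551-39688724, FDR 0.00983) lay 39472 bp outside that gene and within 5 kb of the end of Cyp2c68. Cyp2c69 had an intergenic peak 35731 bp upstream (FDR 0.0108), and Cyp2c44, an arachidonic acid epoxygenase that RefSeq lists as Cyp2c23, had one 10553 bp upstream in the body of Erlin1 (FDR 0.0088). Cyp2c50 had a ChIP peak of 350 bp over an IgG peak of 125 bp, and Cyp2c29, Cyp2c37, Cyp2c39 and Cyp2c65 had IgG peaks alone.

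On chromosome 7, the cluster of Cyp2a, Cyp2b, Cyp2f, Cyp2g, Cyp2s and Cyp2t genes held 9 ChIP-specific and 15 IgG peaks, 6.64 (3.03 to 12.6) and 11.1 per Mb (6.19 to 18.2). Chromosome 7 as a whole had 5.97 and 7.29 per Mb, both inside the intervals of the cluster. Of the 9 ChIP-specific peaks, 4 were nearest to a P450 gene, at Cyp2s1, Cyp2a5, Cyp2b19 and Cyp2g1. The others were assigned to pheromone receptor, Nlrp, predicted genes or a pseudogene between the P450 genes. Cyp2a5, the coumarin hydroxylase, had an intergenic peak 10655 bp upstream (chr7:26824526-26824774, FDR 0.00887). Cyp2b19, a P450 gene of skin keratinocytes, had an exonic peak inside the gene (chr7:26764951-26765074, FDR 0.0421) 5551 bp from an intronic IgG peak with an FDR of 0.000934. Cyp2g1, of the olfactory mucosa, had an intronic peak (chr7:26811601-26811699, FDR 0.0412) and 2 intronic IgG peaks, the nearer one 1726 bp away with an FDR of 0.0123. At both Cyp2b19 and Cyp2g1 the FDR of the IgG peaks was thus lower than that of the ChIP-specific peak. Low values were also more frequent in the IgG list as a whole, where 53.5% reached 0.01, against 29.1% of ChIP-specific peaks. Cyp2b10, the phenobarbital-inducible target of the receptor CAR, had a single ChIP peak 3970 bp upstream (chr7:25893476-25893824). It lay over an IgG peak, and both had an FDR printed as 0. Cyp2a4, a testosterone hydroxylase, and Cyp2b13 had IgG peaks and no ChIP peak, and the IgG peak nearest to the TSS of Cyp2a4 was exonic (chr7:26308501-26308724, FDR 0.0364).

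The Cyp2j genes, epoxygenases of arachidonic acid, had 3 ChIP-specific peaks, 3 ChIP peaks over IgG peaks and 6 IgG peaks. Outside P450 genes 26.1% of ChIP peaks lay over an IgG peak. Of 7 protein-coding members, 2 were nearest to a ChIP-specific and 4 to an IgG peak, beside 17.5% and 17.0% of all protein-coding genes. The Cyp2j cluster held 3.22 ChIP-specific (0.39 to 11.6) and 9.65 IgG peaks per Mb (3.54 to 21). Chromosome 4 as a whole had 6.18 and 6.86, inside those intervals. Cyp2j11 had an intronic ChIP-specific peak 4437 bp downstream of its TSS (chr4:96344126-96344324, FDR 0.0102), and an IgG peak with an FDR printed as 0 lay 8051 bp from it. The other ChIP-specific peaks were assigned to Cyp2j5 (36496 bp upstream, FDR 0.041) and to Cyp2j7 (FDR 0.0327), and the Cyp2j7 peak lay in the pseudogene Cyp2j15-ps. Cyp2j6, Cyp2j8 and Cyp2j9 had a shared site each. At Cyp2j6 (chr4:96557726-96557999) the ChIP peak had an FDR printed as 0 and the IgG peak one of 0.00332. It was annotated as intergenic, while RefSeq places it inside Cyp2j6. At Cyp2j9 the shared ChIP peak lay 3322 bp upstream of the TSS (chr4:96594776-96595024, FDR 0.00887), against an FDR of 0.0164 for the IgG peak, and at Cyp2j8 it was intronic (chr4:96451601-96451949, FDR 0.00515), against a lower FDR of 0.00332 for the IgG peak.

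The remaining families had few peaks or none. Of 8 Cyp4a genes, fatty acid hydroxylases, Cyp4a29 had a ChIP-specific peak 3560 bp outside its body (chr4:115258501-115258674, FDR 0.0131), and Cyp4a12a had an intronic IgG peak 3591 bp downstream of its TSS. The pseudogene Cyp4b1-ps1 had a shared site 1061 bp upstream, with an FDR of 0.00849 for the ChIP and printed as 0 for IgG. Cyp2e1, the ethanol-inducible P450 gene, had 1 ChIP peak 13114 bp upstream (chr7:140750451-140750799, FDR 0.00503) over an IgG peak with an FDR of 0.00598. Cyp1b1 had an IgG peak 1109 bp upstream of its TSS and no ChIP peak, and Cyp1a1 and Cyp1a2, the classical targets of the aryl hydrocarbon receptor, were nearest to no peak. Cyp4v3 and Cyp2d40 had IgG peaks alone. That of Cyp4v3 was intronic and inside the RefSeq gene, 7696 bp upstream of the TSS that the annotation used, and the nearer one of Cyp2d40 was intergenic and 7942 bp upstream. The other 7 protein-coding Cyp2d genes had none. All 9 Cyp4f genes, among them leukotriene hydroxylases such as Cyp4f18, were nearest to no peak of either list, and the cluster of 8 of them, 0.495 Mb on chromosome 17, held 0 ChIP and 0 IgG peaks (exact Poisson interval 0 to 7.46 per Mb for each). Chromosome 17 as a whole had 4.78 ChIP-specific and 5.13 IgG peaks per Mb, inside that interval.

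Taken over the 8 clusters, which hold 71 protein-coding P450 genes in 5.74 Mb, 30 ChIP-specific peaks gave 5.23 per Mb (3.53 to 7.46). The autosomes had 5.24 per Mb. IgG peaks numbered 36, or 6.27 per Mb (4.39 to 8.69), against 6.15 over the autosomes, and ChIP peaks over IgG peaks 6, or 1.05 per Mb (0.384 to 2.28), against 1.86. All 3 autosomal densities lay inside the intervals of the clusters.

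The FDR of the ChIP-specific peaks at P450 genes spread like that of others in their list. The median FDR was 0.015 (order-statistic interval 0.0102 to 0.0222), against 0.0146 for the 14437 other annotated ChIP-specific peaks, and ran from 0.00332 to 0.0451. None of the 32 had an FDR printed as 0 (Wilson interval 0 to 10.7%), against 162 of the others (1.12%). At most 0.01 was reached by 8, at Cyp26b1, Cyp11b2, Cyp7b1, Cyp2c44, Cyp3a44, Cyp3a57, Cyp2a5 and Cyp2c67. Their median length was 162 bp (125 to 225), against 200 bp (175 to 200). The FDR was printed as 0 for 6 ChIP peaks at P450 genes, and these, at Cyp27a1, Cyp46a1, Cyp26a1, Cyp2j6 and Cyp2b10, all lay over IgG peaks. They made up 42.9% (21.4 to 67.4) of the 14 ChIP peaks over IgG at P450 genes. Among the 5101 other ChIP peaks over IgG the share was 31.2%, inside that interval.

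**Figure D3:**
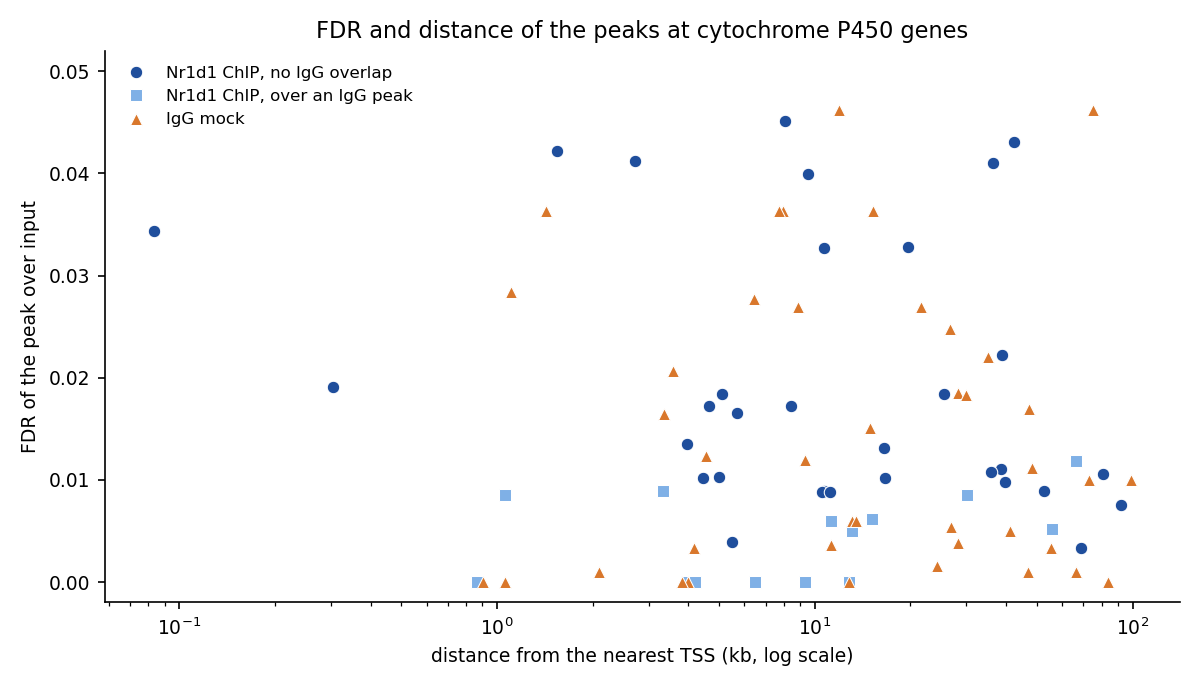
FDR of each peak over input (y axis) against its distance from the nearest TSS in kb (log scale, x axis) for the 46 ChIP and 41 IgG peaks at P450 genes; dark blue circles are ChIP-specific peaks, light blue squares ChIP peaks over IgG peaks and orange triangles IgG peaks. The 2 circles nearest to a TSS are Cyp2s1 (83 bp) and Cyp26a1 (304 bp), and the points at an FDR of 0 are squares and triangles only.

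Of the 46 ChIP peaks at P450 genes, 14 (30.4%, 19.1 to 44.8) shared 1 bp or more with an IgG peak, against 26.1% (25.5 to 26.7) of the other ChIP peaks. Of the 41 IgG peaks, 14 (34.1%, 21.6 to 49.5) overlapped a ChIP peak, against 29.9% of the others. At the 14 shared sites the ChIP peaks ran from 200 to 400 bp with a median of 338 bp, and the IgG peaks from 125 to 300 bp with a median of 200 bp. The ChIP peak was the longer one at 12 sites (85.7%, 60.1 to 96.0), equal at 1 of Cyp7b1 and shorter at Cyp4b1-ps1. Over the 5101 other shared sites the ChIP peak was longer at 59.8% (58.5 to 61.1), which lies just below the interval for P450 genes, while the intervals of both shares overlapped. No test was made of this difference. The FDR was lower for the ChIP peak at 7 of the 14 sites (interval 26.8% to 73.2%), equal at 3 and higher at 4, against 29.0%, 23.2% and 47.8% over the other shared sites. The largest excess in length was 250 bp, at the second site of Cyp46a1. Length and FDR depend on the depth of each list, which is unknown, and its part in these differences was not tested.

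**Figure D4:**
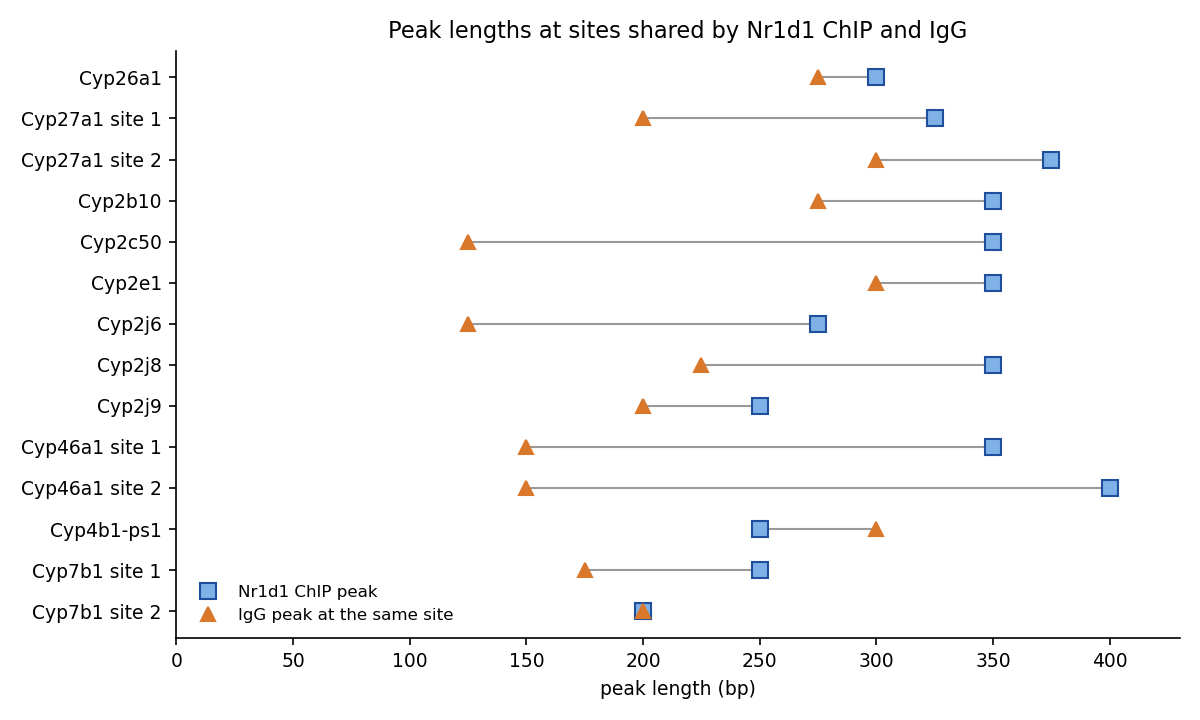
Length in bp (x axis) of the Nr1d1 ChIP peak (blue squares) and of the IgG peak (orange triangles) at the 14 sites of P450 genes where both lists hold a peak; sites of 1 gene are numbered by position. The ChIP peak is longer at 12 sites, by 250 bp at the second Cyp46a1 site, equal at the second Cyp7b1 site and shorter at Cyp4b1-ps1.

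By the annotation of the authors, 16 of the 32 ChIP-specific peaks (interval 33.6% to 66.4%) were intergenic, 10 intronic (31.2%, 18.0 to 48.6), 3 exonic, 2 at a TTS and 1 at a promoter (3.12%, 0.554 to 15.7). Among the other ChIP-specific peaks 57.2% were intergenic, 30.8% intronic, 4.51% exonic, 1.96% at a TTS and 5.53% at a promoter. Each lay inside the interval for P450 genes, which was 3.24% to 24.2% for exonic and 1.73% to 20.1% for TTS peaks. RefSeq placed 11 of the 32 in the body of the gene they were assigned to, 5 in the body of another gene and 16 in none. The median distance from a TSS was 10686 bp (5481 to 35731) for ChIP-specific and 13476 bp (7942 to 28154) for IgG peaks at P450 genes, against 30882 bp and 34614 bp for the other peaks of each list. All 32 and 41 distances at P450 genes were under 100 kb, against 77.7% and 76.5% in the other peaks of each list. Within 10 kb lay 43.8% of the ChIP-specific (28.2 to 60.7) and 39% of the IgG peaks (25.7 to 54.3), against 27.7% and 26.4%. Distance is not independent of how members were chosen, since the annotation assigns each peak to its nearest TSS. The other peaks were assigned by the same rule, and no cause of the difference in distance was tested. The gap from a ChIP-specific peak to the nearest IgG peak had a median of 49126 bp (27826 to 100176) at P450 genes and 36664 bp elsewhere, inside that interval. An IgG peak lay within 10 kb of 6 of the 32, a count that was not made for the other peaks.

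Of 38 further genes of the P450 system, a ChIP-specific peak was assigned to 7 and an IgG peak to 8, beside 17.5% and 17.0% of all protein-coding genes. These counts are near those shares, so the genes below are given for their positions and not as a result about the group. None of the 6 redox partners, such as Por, which passes electrons to microsomal P450 enzymes, was nearest to a peak. Among 18 regulators, Nr1i2, which encodes the xenobiotic receptor PXR that induces Cyp3a11, had an intronic ChIP-specific peak (chr16:38289001-38289124, FDR 0.0301) and no IgG peak. Nr1h4, the gene of the bile acid receptor FXR, had one at position -4065 relative to its TSS (chr10:89537601-89537699, FDR 0.0294), and Rorb had 5, with 1 ChIP peak over an IgG peak and 4 IgG peaks. Its relative Rora had 4 ChIP peaks, all over IgG peaks, and 8 IgG peaks, and Hlf had 1 over an IgG peak and 3 IgG peaks. Rxra, whose product pairs with PXR and FXR, had a promoter peak over an IgG peak, and Ahr, Hnf4a and Nr1d1 itself had IgG peaks alone. Of 14 genes of conjugation and transport, Sult2a8, a sulfotransferase, had 3 ChIP-specific peaks, the nearest at its promoter (chr7:14446576-14446674, FDR 0.0188, at position -39). Gsta1, a glutathione transferase, had 2, the nearest 756 bp downstream of its TSS (chr9:78231326-78231499, FDR 0.0152). Abcb11, the bile salt export pump, had an intronic one (FDR 0.0088), as did Slco1b2, a liver uptake transporter that also had a shared site.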

How the data were processed

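Nr1d1 ChIP, IgG mock and input DNA were sequenced as 5 libraries. Chromatin was fixed with 1% formaldehyde for 30 minutes and sonicated, per the labels' protocols. The submitters' processing notes name mm10, the aligner BWA and HOMER, without versions. Which program called peaks, and how ChIP libraries were pooled, is not given in the sources used here. For each peak the authors deposited an FDR, that is a q-value, printed to 6 decimals. The score in the authors' deposited annotation equalled the peak length in every row, and lengths were multiples of 25 bp. Positions are those of the annotation. Gene counts leave out 2 ChIP-specific peaks and 1 IgG peak that lack an annotation. The files used here hold no columns of per-sample values.

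ChIP-specific membership equalled no IgG overlap of 1 bp for all 19584 annotated ChIP peaks. Gene bodies, older symbols and promoters came from RefSeq (GRCm38.p6); all 45 genes matched, 1 by an older symbol, and 77 P450 genes had a promoter sequence. A cluster is a run of at least 3 protein-coding P450 genes with gaps of at most 500 kb, and densities of chromosomes used the span from first to last RefSeq gene. Overlap, motif and cluster code (Python 3.11.15, numpy 2.4.6, pandas 2.3.3, scipy 1.17.1, matplotlib 3.10.9) was tested on simulated data. Members, lists and alternatives were chosen with earlier results of these data known. Detailed values are given for genes with a promoter, exon or TTS peak, a peak within 10 kb of the TSS, an FDR printed as 0, or peaks of both lists; others were added after their values were seen. The alternatives changed the FDR limit, distance, gene assignment, overlap, pseudogenes and cluster gaps.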

Additional observations from a re-analysis of the deposited data

How the results depend on the processing

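Of 27 alternative values, 19 stayed within 1.5 times a count or inside the interval of a share, median or density, and 8 moved. With an FDR of at most 0.01, P450 genes nearest to a ChIP-specific peak numbered 8 instead of 25 and their peaks 8 instead of 32, while IgG genes numbered 15 instead of 29 and IgG peaks 20 instead of 41. Over all genes 29.1% of ChIP-specific and 53.5% of IgG peaks met this limit. The median distance from the TSS was 25394 bp, against 10686 bp, inside the wide interval of the median but over 1.5 times as large. No promoter peak was left (0%, against 3.12%), and the density in the clusters was 1.22 per Mb, against 5.23, beside 1.56 over the autosomes at the same limit. With peaks in the RefSeq gene body or within 5 kb, 16 genes and 17 peaks were counted for the ChIP-specific list. This count leaves out distant peaks and adds genes whose peak was assigned to another gene, such as Cyp26c1 and Cyp2c68. Counting peaks within 1 kb of the TSS as promoter gave 6.25%, against 3.12%, inside the interval. Requiring an overlap of at least 50% put 21.7% of the ChIP peaks over IgG, against 30.4%, inside the interval. No paired analysis was possible because each antibody has 1 list and no value per library, and for the same reason no replicate could be left out. The unknown depth limits every absence: a gene without a peak had none that passed the authors' threshold.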
